A study of Mus musculus with 6 samples.

Results

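The genes described here are 10 that encode WNT ligands or secreted proteins that act on WNT signalling in the ovary: the ligands Wnt2, Wnt4, Wnt5a and Wnt11, the secreted Frizzled-related proteins Sfrp1, Sfrp2, Sfrp4 and Frzb, the Dickkopf family member Dkk3, and the R-spondin Rspo1. They were found as rows labelled exactly with these symbols, and each symbol had 1 row among 30832 rows of the authors' processed value table and 1 row among 30854 rows of the authors' non-normalized table. Granulosa cells, the somatic cells that surround the oocyte, were taken from female C57BL/6J mice of genotype Fzd1 KO (3 samples) and Fzd1 WT (3 samples); Fzd1 is a Frizzled receptor for WNT ligands. All mice were labelled 26 days old (23 to 26 days in the protocol), and both genotypes received 5 IU of eCG, which drives follicle growth, 48 h later 5 IU of hCG, which stands in for the luteinizing hormone surge that triggers ovulation, and were sampled 12 h after that by puncturing the ovaries. The sources used here do not say how the KO allele was made, or whether the samples of a genotype were separate animals or pools, so p-values measure only the spread between samples and may reflect technical error alone.

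WNT ligands are lipid-modified glycoproteins that bind Frizzled receptors, alone or with a co-receptor of the LRP family, and signal either by stabilising beta-catenin or by routes that do not use it. Secreted Frizzled-related proteins carry a domain like the ligand-binding domain of Frizzled and can hold ligands away from the receptor, whereas R-spondins keep receptors on the cell surface by acting on LGR proteins and the ligases ZNRF3 and RNF43. In the mouse ovary Wnt4 is required for normal female gonad development and is expressed by granulosa cells of growing follicles and by corpora lutea, and Sfrp4 is known as a transcript of luteinizing granulosa cells.

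Whether a row's value could be credited to the gene it was labelled with was checked first, with rows labelled Rps or Rpl plus a number, most of which name ribosomal proteins, among the most abundant transcripts of animal cells. In the non-normalized table these 77 rows had a median intensity of 1452, against 106 over all rows, and 52 of them (67.5%) were among the brightest 10% of rows. In the processed table the same number of rows had a median level of 7.64 log2 units, against 7.64 over all rows, and 11 (14.3%) were among the brightest 10%. Over the 30817 labels found in both tables, Pearson's r of the mean log2 levels was -0.0033, a description across rows, which are not independent replicates. Levels are therefore credited to genes in the non-normalized table only, and in the processed table a symbol is used as a row label and nothing more.

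**Figure D1:**
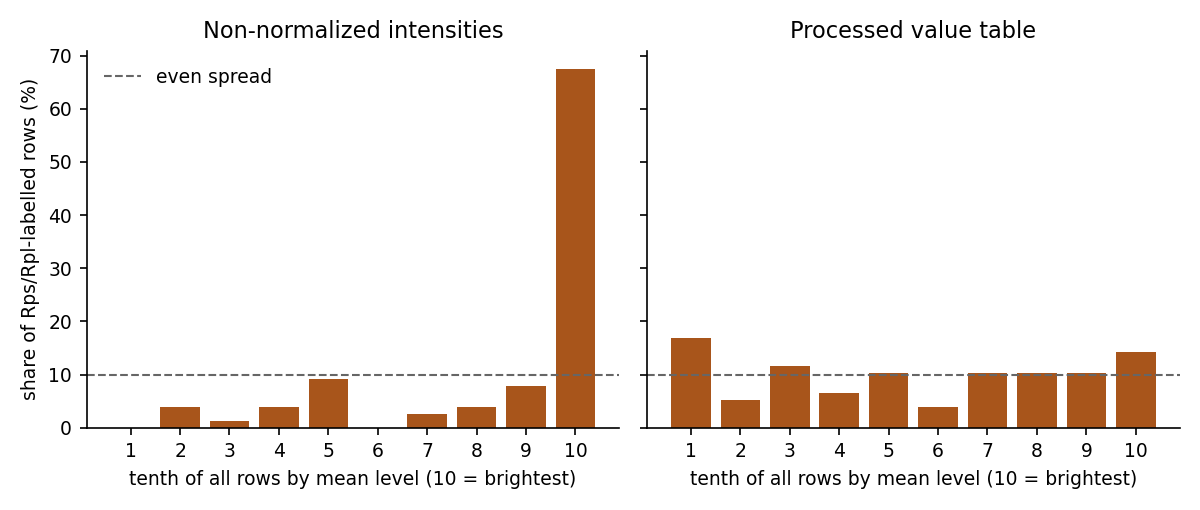
Share of the 77 rows labelled Rps or Rpl plus a number (vertical axis, percent) by bins of 10% of all rows ordered by mean level (horizontal axis, bin 10 the brightest), in the non-normalized table (left) and in the processed table (right). The brightest bin holds 67.5% of them on the left and 14.3% on the right, and the dashed line marks the 10% that an even spread would give.

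The non-normalized table holds a scanner intensity and a detection p-value per row on each of 6 arrays. Its column names match no sample label, so the genotype of each array is not known, the arrays are numbered 1 to 6 in file order, and no comparison between KO and WT was made with them. A detection p of 0.01 or lower is called detected here, meaning that the row lay above the array's background. Between 7507 and 8037 rows were detected on an array, 5785 rows (18.7%) on all 6, and the median intensity of all rows was 105 to 113, so a value near that is close to background. Genes of red cells, granulosa cells and oocytes were among the bright rows: Hba-a1, a haemoglobin chain, lay between 21989 and 27102, Inha, the inhibin alpha subunit made by granulosa cells, between 8835 and 12626, and Gdf9, a growth factor of the oocyte, between 5954 and 9544. Of 17 measured granulosa markers 11 were detected on all 6 arrays. Of the others, Foxl2, Ptgs2, Has2 and Ereg were detected on 0 arrays, Pgr on 1 and Hsd3b1 on 3. RNA of oocytes (6 of 7 markers) and red cells (3 of 3) was present as well. Of the theca and stroma markers 1 of 10 was detected on all arrays, of the endothelial markers 0 of 5, of the leukocyte markers 1 of 5 and of the surface epithelium markers 2 of 6. The other bright oocyte genes were Bmp15 (1381 to 3595), Zp3 (933 to 2128) and Oosp1 (836 to 1611), and the other red cell genes Hbb-b1 (7210 to 10339) and Alas2 (177 to 282). The markers detected from the remaining lists were Acta2, a smooth muscle actin (518 to 802), Lyz2, a lysozyme of myeloid cells (226 to 307), Krt8, a keratin (134 to 208), and Upk3b, a uroplakin (147 to 197).

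Of the 10 genes, Wnt4 was detected on all 6 arrays, Sfrp4 and Dkk3 on 5, Sfrp2 on 4 and Sfrp1 on 1, and the other 5, Wnt2, Wnt5a, Wnt11, Frzb and Rspo1, on 0. The count of 1 in 10 on all arrays stands beside 18.7% of all rows. With a detection p of 0.05 or lower the count on all 6 arrays was 3, Wnt4, Sfrp4 and Dkk3. The share of all rows at that looser limit was not counted, so this count of 3 has no background beside it. A row that is not detected has no measured level here, and that does not show that the transcript is absent. Brightness differs between probes for reasons other than abundance, so the intensities of different genes are not set against each other.

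**Figure D2:**
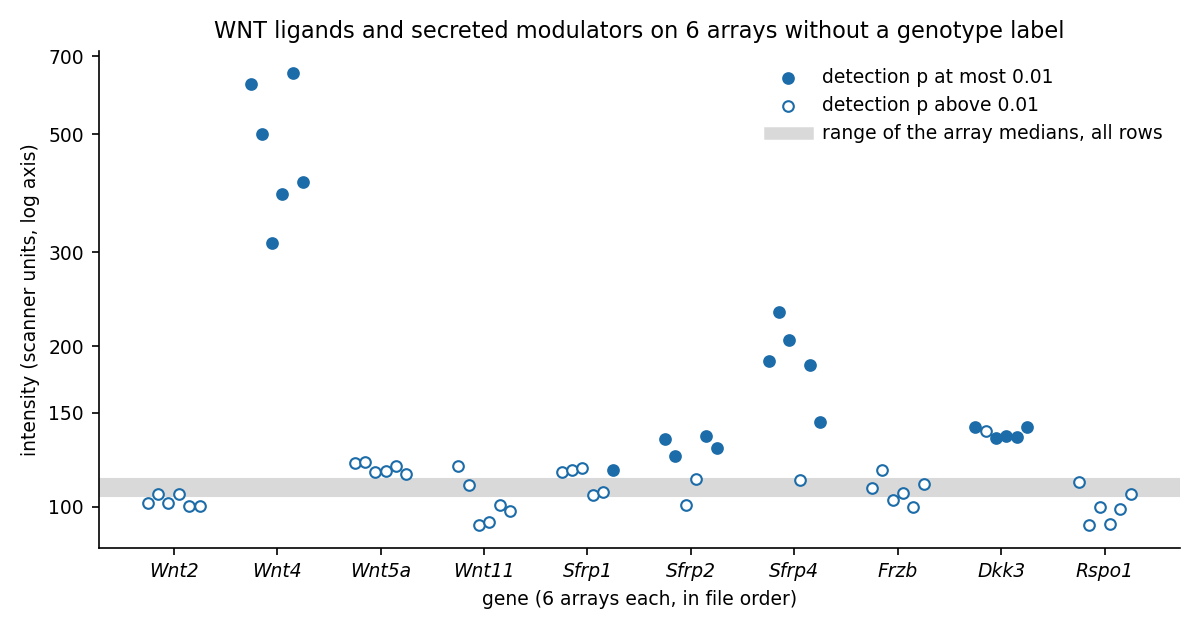
Intensity (vertical axis, scanner units on a log axis) of each of the 10 genes (horizontal axis) on the 6 arrays of unknown genotype, 1 point an array in file order. Filled points have a detection p of at most 0.01 and open points a higher one, and the grey band spans the median intensities of the arrays. Wnt4 lies at 312 to 650 on all 6 arrays, Sfrp4 at 112 to 232, and the points of Wnt2 and Rspo1 lie in or near the band.

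Wnt4 was the ligand with a clear signal. Its intensity was 621, 500, 312, 387, 650 and 406 on arrays 1 to 6, and its detection p was listed as 0 on each. These values were 2.97 to 6.09 times the median intensity of their own array. Array 5 had the highest value and array 3 the lowest, a ratio of 2.08, and on no array was it below percentile 89.9 of the rows. After quantile normalization between arrays the ratio was 2.03, and 97.8% of the 5785 rows detected on all arrays had a smaller one. Among the 1205 detected rows with a mean intensity within 0.5 log2 units of that of Wnt4, 95.3% had a smaller ratio, and their median was 1.35. Whether the spread of Wnt4 goes with genotype cannot be read from this table. In RNA from a mixed sample, fewer cells of a type and less RNA per cell cannot be told apart.

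The other 3 ligands were at background. Wnt2, a ligand that rodent granulosa cells are known to express, lay between 100.1 and 105.8, with detection p-values of 0.176 to 0.802. Wnt5a, which acts mainly through routes without beta-catenin, lay between 115 and 121 in a row that joins 3 probe entries, above the median of each array by 1.05 to 1.12 times. Its detection p was 0.0206 at the lowest and 0.205 at the highest, so it passed 0.01 on 0 arrays and 0.05 on 3. Wnt11, another ligand linked to signalling without beta-catenin, lay between 92.4 and 119, with the highest value on array 1 at a detection p of 0.063. For these 3 ligands the spread over arrays is a spread of background readings.

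The bases before the transcription start of Wnt4, the ligand with signal, and of Frzb, an antagonist without it, are printed as examples. The pair does not stand for the detected and undetected genes of the set. RefSeq windows of GRCm38.p6 were given for 6 of the 10 genes, and each run below is the 250 bases before an annotated start, 5′ to 3′ on the gene's own strand. Capitals mark the GC box GGGCGG, the TCF/LEF core CTTTGA, the SF-1 element AAGGTCA and the TATA box TATAAA, searched on both strands.
Wnt4, chr4:137277385-137277634, plus strand: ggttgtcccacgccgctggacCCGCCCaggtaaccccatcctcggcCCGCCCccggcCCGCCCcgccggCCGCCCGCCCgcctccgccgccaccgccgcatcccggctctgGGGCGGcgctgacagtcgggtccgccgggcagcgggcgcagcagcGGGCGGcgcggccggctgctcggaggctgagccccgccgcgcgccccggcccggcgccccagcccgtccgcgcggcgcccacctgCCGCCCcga
Frzb, chr2:80447397-80447646, minus strand: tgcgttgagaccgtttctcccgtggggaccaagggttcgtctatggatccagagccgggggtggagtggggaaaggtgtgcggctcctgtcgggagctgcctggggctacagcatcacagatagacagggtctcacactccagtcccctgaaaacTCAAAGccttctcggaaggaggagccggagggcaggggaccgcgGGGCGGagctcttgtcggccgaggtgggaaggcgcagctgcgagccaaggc
The Wnt4 window held 8 GC boxes, of which 2 overlap, and 44 CpG dinucleotides, more CpGs than 99.5% of the 32851 windows, whose median was 6. The Frzb window held 1 GC box, 1 TCF/LEF core and 16 CpGs. A GC box occurs in 32.7% of all windows, a TCF/LEF core in 13.8%, an SF-1 element in 4.08% and a TATA box in 12.4%. Of the 6 genes with a window only Wnt4 and Sfrp2 were detected on any array. Sfrp4, Dkk3, Sfrp1 and Wnt5a had no window. Wnt4 held the most CpGs of the 6, but the counts of the detected and undetected genes overlapped. An upstream window of Wnt11, which was detected on 0 arrays, held 37 CpGs and 4 GC boxes, and another held 16 and 0. The windows of Wnt2 and Rspo1, also detected on 0 arrays, held 20 and 22 CpGs. That of Sfrp2, detected on 4 arrays, held 16 CpGs and 0 GC boxes. A match is a description of the letters and not a bound site.

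Among the secreted Frizzled-related proteins, Sfrp4 had the clearest signal. Its intensity was 188, 232, 206, 112, 185 and 144 on arrays 1 to 6, and it was detected on each except array 4, where its detection p was 0.0385. Array 4 was low and array 2 high, and the highest value was 2.07 times the lowest. The arrays did not follow the order of Wnt4, since array 3, the lowest for Wnt4, was the second highest for Sfrp4. Sfrp2, which binds WNT ligands and is known from mesenchymal cells, gave 134, 125, 101, 112, 135 and 129. Its highest value was on array 5 and its lowest on array 3, as for Wnt4. It was detected on arrays 1, 2, 5 and 6, and on array 3 it was indistinguishable from background, with a detection p of 0.507. Sfrp1 lay between 105 and 118 and passed 0.01 on array 6 alone, at 0.00473, although its intensity there, 117.0, was below those on arrays 2 and 3, 117.2 and 118.3. Frzb, also known as Sfrp3, lay between 99.9 and 117 with a lowest detection p of 0.0374.

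Dkk3, a member of the Dickkopf family that unlike Dkk1 is not an established inhibitor at LRP co-receptors, read nearly the same intensity on the 6 arrays and was detected on 5 of them. Its values were 141, 138, 134, 136, 135 and 141, a highest over lowest of 1.05, and 1.25 to 1.30 times the array medians. The detection p was between 8.71e-06 and 0.000947 on 5 arrays and 0.0369 on array 2, whose intensity was the third highest. On array 2, 78.1% of the 137 other rows within 1 intensity unit of it were detected, with p-values from 0 to 0.660, so in this table the detection p does not follow the intensity alone. Rspo1, the R-spondin required for ovarian differentiation in the embryo, lay between 92.3 and 111, with detection p-values of 0.296 to 0.963. Rspo2, a related R-spondin, lay between 126 and 157 and was detected on all 6 arrays.

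Over all rows 64.8% were detected on 0 arrays, and the rest of the pathway is given beside that share. Of 15 other WNT ligands 0 were detected on all 6 arrays and 13 on 0 arrays, and Wnt5b passed on 4 arrays with 112 to 140. Of 17 other measured modulators 1 was detected on all arrays, Rspo2, and 13 on none. Porcn, the acyltransferase that WNT ligands need for secretion, read 315 to 649 and passed on 5 arrays, with a detection p of 0.0165 on the other. Of 23 receptors and receptor regulators 2 were detected on all arrays and 15 on none, a share near that of all rows. These were Ryk, an atypical receptor for WNT ligands, at 645 to 778, and Fzd3, a Frizzled receptor, at 122 to 140. Fzd1 itself, the gene knocked out in the KO mice, lay between 96.4 and 108 and was detected on 0 of the 6 arrays (detection p 0.224 to 0.879), so its level gives no check of genotype in this table.

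The rows most like Wnt4 across the arrays were sought among the 5784 other rows detected on all 6, by Pearson's r of quantile-normalized log2 intensities. The first was the row labelled Cyp11a, an older symbol of Cyp11a1, the side-chain cleavage enzyme that starts steroid synthesis, with r = 0.97 over 6 arrays. Its intensity was 517, 491, 380, 420, 564 and 440, highest on array 5 and lowest on array 3 as for Wnt4. The second was the row labelled EG622339, an older name of the pseudogene Gm6316, with r = 0.97, and 9 rows had an r above 0.95. A separate row labelled Cyp11a1 gave 506, 476, 286, 349, 415 and 482, lowest on array 3 as well but highest on array 1. With 6 arrays and 5784 rows searched, high values of r are found by the search itself, so these are a description without a test.

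The granulosa markers differed between arrays as well, some with and some against Wnt4. Of the 11 detected on all arrays, 3 were lowest on array 3 as Wnt4 was, Lhcgr, Cyp11a1 and Adamts1, and 4 were highest there, Inhba, Fst, Cyp19a1 and Fshr. Lhcgr, the receptor for luteinizing hormone, read 649, 776, 455, 513, 550 and 540 on arrays 1 to 6, and Adamts1, a protease of the ovulating follicle, read 723, 830, 436, 619, 640 and 579. On array 5, where Wnt4 was highest, 5 of the 11 markers were lowest and 0 were highest. Cyp11a1 is counted here by the row with that label alone. The other row of that gene, labelled Cyp11a, was highest on array 5, at 564. Inhba, the inhibin and activin beta A subunit, read 825, 1116, 2352, 1514, 852 and 679 on arrays 1 to 6, and Cyp19a1, the aromatase that makes oestradiol, read 682, 936, 1585, 630, 499 and 764. Inha read 10195, 9364, 12356, 12626, 8835 and 10263, and Fst, which binds and blocks activin, read 1476, 1213, 1845, 1511, 1018 and 1220. Summed intensities over the measured markers ran from 14273 on array 5 to 21023 on array 3 for granulosa cells. They ran from 9704 to 17414 for oocytes, from 30229 to 37683 for red cells and from 1509 to 1860 for theca and stroma. Inha made up most of the granulosa sum, Gdf9 of the oocyte sum and Hba-a1 of the red cell sum. The sums are thus not a measure of the share of a cell type. Of the 10 theca and stroma markers 6 were detected on 0 arrays, so their sum is in part background. Cyp17a1, the androgen-synthesis enzyme of theca cells, read 107, 135, 215, 130, 127 and 128 on arrays 1 to 6 and was detected on each except array 1. The part of cell composition in the spread of Wnt4 was not tested.

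**Figure D3:**
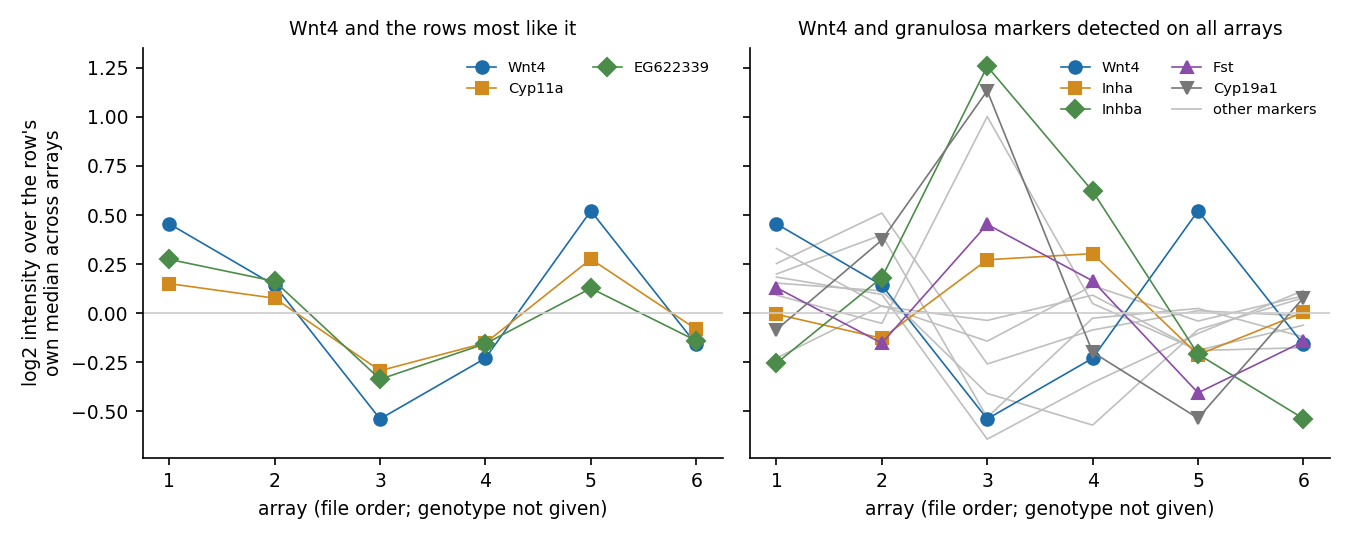
Log2 intensity of single rows over each row's own median across the 6 arrays (vertical axis, log2 units) by array in file order (horizontal axis, genotype not given), for Wnt4 with the 2 rows most like it (left) and with the granulosa markers detected on all arrays (right, the 4 brightest in colour and the other 7 as pale lines). Wnt4 is lowest on array 3 (-0.54) and highest on array 5 (0.52), Inhba and Cyp19a1 are highest on array 3 (1.26 and 1.13), and some of the pale lines are lowest there.

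The comparison of Fzd1 KO with WT asks which transcripts of granulosa cells differ without Fzd1 after an ovulatory stimulus, and only the processed table has columns that name the samples. Since its labels did not follow the levels, what follows describes 10 rows and not 10 genes. By percentile of mean level in the processed table against the non-normalized one, the labels Wnt4 (89.3 and 93.1), Sfrp2 (69.1 and 71.3) and Wnt11 (18.2 and 24.9) lay close together. The labels Dkk3 (98.9 and 76.2), Sfrp1 (88.0 and 65.3) and Rspo1 (31.6 and 12.2) lay further apart, and Wnt2 (76.8 and 26.3), Sfrp4 (28.2 and 82.3), Frzb (6.71 and 53.8) and Wnt5a (5.33 and 69.0) furthest. Since Pearson's r over all shared labels was -0.0033, closeness of a label does not tie its row to the named gene. The processed values are treated as log2 levels, a scale inferred from their range.

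None of the 10 rows differed between the genotypes past the threshold. Of the 5 rows among the 18499 brightest 60% that were tested with limma, 0 were called at an adjusted p of 0.05, against 0% of all rows tested, and 0 had an unadjusted p under 0.05, against 4.94% of all. The other 5 rows, labelled Wnt5a, Wnt11, Sfrp4, Frzb and Rspo1, were below that limit and were taken from a limma fit to all 30832 rows, in which 0 of the 10 passed, again against 0%. Adjusted p-values from limma were between 0.975 and 0.994. The mean was higher in KO for 6 rows and lower for 4, the median difference of the 10 rows was 0.015 log2 units, and that of all 30832 rows was 5.4e-05. The largest differences were -0.055 and 0.032, and the 95% intervals of all 10 rows lay within -0.25 and 0.28.

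The row labelled Wnt4 had levels of 8.35, 8.43 and 8.38 in KO (mean 8.39 ± 0.038 SD, n = 3) and 8.45, 8.41 and 8.47 in WT (8.44 ± 0.031 SD, n = 3). KO and WT overlapped by the second KO sample, which lay above the second WT sample. The difference, KO minus WT, was -0.055 (95% interval -0.13 to 0.015, SE 0.028), at a limma adjusted p of 0.978 and an exact permutation p of 0.2, two-sided; 3 samples against 3 cannot give less than 0.1. In the row labelled Wnt5a the levels were 7.57, 7.57 and 7.56 in KO and 7.59, 7.66 and 7.60 in WT. The 3 KO values lay below the 3 WT values, which held in none of the other 9 rows in either direction, and the genotypes did not overlap in 10.2% of all 30832 rows (10.3% of the brightest 60%, which do not include this row). KO minus WT was -0.052 (SE 0.023), at a limma adjusted p of 0.975 and the smallest possible exact permutation p, 0.1, and it ran from -0.064 to -0.030 with 1 sample left out.

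The rows labelled Sfrp1 and Dkk3 had the widest spread within a genotype. The row labelled Sfrp1 had 8.33, 8.48 and 8.16 in KO and 8.33, 8.25 and 8.29 in WT, so the KO samples lay on both sides of all WT samples. Its difference was 0.032 (SE 0.081, 95% interval -0.17 to 0.23). The row labelled Dkk3 had 11.01, 10.95 and 11.21 in KO and 10.92, 10.96 and 11.24 in WT, with the third sample of each genotype the highest. KO minus WT was 0.015 (95% interval -0.25 to 0.28, SE 0.11), and its sign changed without KO replicate 3 (-0.061), WT replicate 1 (-0.042) or WT replicate 2 (-0.026). For the row labelled Sfrp1 the sign changed without KO replicate 2 (-0.046).

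The remaining 6 rows lay in the narrow band that holds most rows of the table, where differences have little room. The row labelled Wnt5a, with means of 7.57 in KO and 7.62 in WT, lay in that band as well. The means of the remaining 6 rows were 7.60 to 7.81 in KO and 7.58 to 7.78 in WT, with SDs of at most 0.056 and 0.049. The rows labelled Wnt2, Wnt11, Sfrp2 and Frzb differed by 0.028, 0.024, 0.015 and 0.031, and those labelled Sfrp4 and Rspo1 by -0.021 and -0.035. KO and WT values overlapped in all 6. With 1 sample left out the difference ran from 0.0014 to 0.058 for the row labelled Wnt2, from 0.0054 to 0.046 for Wnt11, from 0.0039 to 0.038 for Sfrp2 and from 0.013 to 0.059 for Frzb. It ran from -0.031 to -0.0095 for Sfrp4 and from -0.051 to -0.013 for Rspo1, so single samples set the size of these differences.

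**Figure D4:**
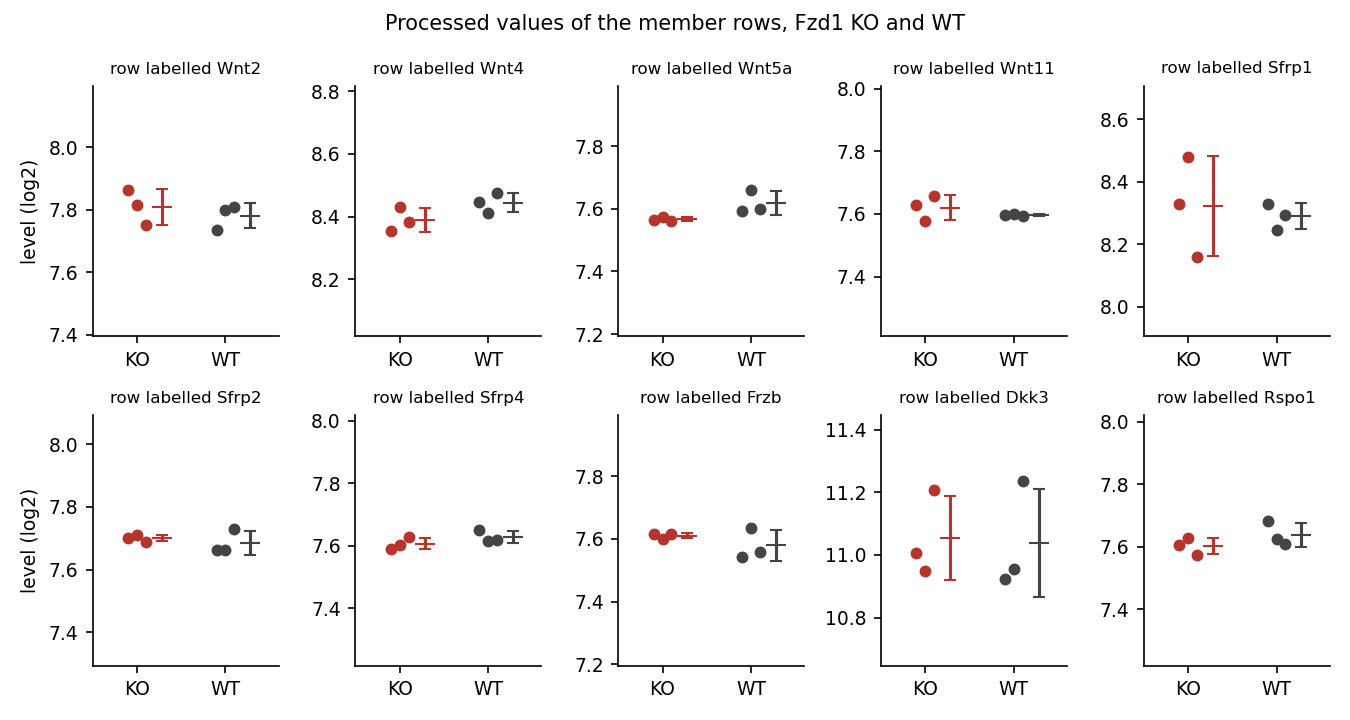
Processed level (vertical axes, log2 units, each spanning 0.8) of the 10 rows with these labels in the 3 Fzd1 KO samples (red) and the 3 WT samples (grey), 1 point a sample, with the mean and SD of each genotype beside the points. Except in the row labelled Wnt5a the points of KO and WT overlap.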

How the data were processed

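RNA of granulosa cells from 3 Fzd1 KO and 3 Fzd1 WT samples was measured on 1-colour bead arrays with biotin label, and groups and replicate numbers came from the sample titles. The authors deposited a processed table, read here as log2 values because they ran from 7.49 to 15.1 on the arrays; the sources used here do not give its normalization. They also deposited a non-normalized table with 12 columns that match no sample label, 6 of intensity and 6 of detection p-values, per the file headers. Its arrays are described singly and enter no group comparison. Labels were unique in each table; 14 rows of the non-normalized table had none.

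The genotype difference was estimated with limma 3.58.1 (R 4.3.3; lmFit, then eBayes), without covariates, over the brightest 60% of rows, with Benjamini-Hochberg adjustment over all rows tested and a threshold of 0.05. The fit was tested on simulated data in which bright rows were given shifts far larger than the differences of the 10 rows. That test does not cover small differences or the dimmer rows. neqc and quantile normalization served as alternatives for the intensities. All 10 symbols were RefSeq symbols in GRCm38.p6, and 6 had start-site windows. Python 3.11.15 and matplotlib 3.10.9 drew the figures. The number of arrays limits the precision. Deviations of same-numbered KO and WT samples correlated at -0.190, -0.038 and -0.301, so the replicate numbers were not taken as pairs.

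The members and lists were chosen with earlier results of these data known. Named were all 10 members, Fzd1, the 4 brightest members of each list detected on all arrays, and the 2 rows most like Wnt4. Wnt5b, Porcn, Cyp17a1, Lhcgr, Adamts1, Fshr and the separate Cyp11a1 row were added after their values were seen. The same holds for Foxl2, Ptgs2, Has2, Ereg, Pgr and Hsd3b1.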

Additional observations from a re-analysis of the deposited data

How the results depend on the processing

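No member row that was tested passed an adjusted p of 0.05 in limma under any of the 13 alternative fits, or 0.1. Adjusted p-values in limma were 0.739 to 0.999, although the row labelled Wnt4 had an unadjusted p of 0.0426 without KO replicate 2. All 10 rows were tested only in the fit without a filter, and the other alternative fits tested 4 to 6 of them. The row labelled Wnt5a was tested in the fit without a filter alone. With the replicate number as a block (replicate block) 0 rows passed, at a smallest adjusted p of 0.999 in limma. The median difference of the 10 rows, 0.015, was 0.0033 after quantile normalization and ran from -0.011 to 0.022 with 1 sample left out. By construction, a filter, a block or limma-trend leaves each difference as it is. Of 75 differences recomputed under quantile normalization, array weights or with 1 sample left out, 70 kept their sign, with 5 or 6 of the samples shared by each. The row labelled Dkk3 turned to -0.0056 after quantile normalization and ran from -0.061 to 0.11 with 1 sample left out, and that labelled Sfrp1 from -0.046 to 0.11; these differences are small against their errors.

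The number of genes detected on all 6 arrays, 1, was 3 at a detection p of 0.05 and 1 to 2 with 1 array left out, 2 without array 2 (Wnt4 and Dkk3) or array 4 (Wnt4 and Sfrp4). The median percentile of the 10 genes was 67.1 by intensity and 67.1 after neqc. Rows labelled Rps or Rpl plus a number were 77.9% among the brightest 25% in the non-normalized table and 29.9% in the processed table. Leaving out S6 kinases and other longer labels, a choice made after seeing the data, gave 79.0% among the brightest 10% in the non-normalized table. Averaging over probes was not run, since each label had 1 row, although a row can join several probe entries, as that of Wnt5a joins 3. After neqc the highest over lowest of Wnt4 was 2.94, against 2.08 in the deposited intensities. For each other member it was smaller after neqc. That of Sfrp4 was 1.42, against 2.07, and that of Sfrp2 was 1.08, against 1.35. The spread of a member thus depends on the background correction, and the reason was not tested. What the members at background would show at a higher signal is not known here.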
